A study of Rattus norvegicus with 2 samples.

Results

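Cyclic AMP carries signals from receptors on the cell surface to kinases, channels and genes. The genes described here encode the core of that route in sympathetic neurons of the stellate ganglion, whose cell bodies send axons to the heart. They were taken by a rule on gene symbols. The rule took the adenylyl cyclases (Adcy), the catalytic and regulatory subunits of protein kinase A (Prkac, Prkar) and its inhibitor peptides (Pki). It also took the A-kinase anchoring proteins that carry an Akap symbol, both Epac exchange factors (Rapgef3 and Rapgef4), and the CREB transcription factors with their CRTC coactivators. It found 45 genes among 25395 genes with a unique name. Stellate ganglia of male rats aged 5 to 6 weeks were dissociated with collagenase and trypsin, and 1 library came from normotensive Wistar rats and 1 from prehypertensive SHRs (spontaneously hypertensive rats). The labels name no treatment, and the number of animals behind each library is not given in the sources used here. SHR is an inbred strain and Wistar an outbred stock, so predisposition to hypertension and strain background cannot be told apart. The age group is prehypertensive, so these values say nothing of established hypertension.

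Adenylyl cyclases make cyclic AMP when a receptor activates the stimulatory G protein. Cyclic AMP then binds the regulatory subunits of protein kinase A (PKA) and frees the catalytic subunits, unless a PKI inhibitor peptide holds them, and AKAPs tether the whole enzyme beside its substrates. In sympathetic neurons this route bears on noradrenaline release and on ion channels, and Akap5 is known as the anchor that brings kinases to the M current channel. Epac proteins are the PKA-independent readers of cyclic AMP, and CREB and CREM carry the signal to genes that hold a cyclic AMP response element (CRE).

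For each strain the deposited values give 1 mean per gene over the neurons of the neuron cluster, converted here to a mean count per 10000 and called the level. The counts are tags from the 3′ ends of transcripts, so levels of different genes were compared without division by length, although capture can differ from gene to gene. Each strain was measured once, so no difference below has an error or a test. A lower mean can come from fewer neurons that express a gene or from less RNA per neuron, and the means alone cannot tell these apart. The deposited shares of cells were not used, because their headers name no strain. The levels hold neither the number of neurons nor their depth, so counting error is unknown and weighs most on the genes of lowest level. Genes above 0 numbered 16000 in Wistar and 14645 in SHR, and genes of mitochondria and ribosomal proteins summed to 1934 and 2160 per 10000. The part of these differences in the lower levels and zeros of scarce members was not tested. The cluster carried its label's markers, with all 10 sympathetic neuron genes above 0.25 per 10000 in both libraries. These markers also differed between the libraries, 6 lower and 4 higher in SHR. Th was at 10.2 in Wistar and 10.1 in SHR, Dbh at 10.2 and 6.36, Slc18a2 at 5.36 and 3.63, and Hand2 at 0.250 and 0.452. Markers of other cells were present too, with smaller sums, and differed between the libraries. All 9 glial markers were lower in SHR, with a summed level of 9.19 per 10000 in Wistar against 3.41 in SHR, and Kcnj10 was listed at 0 in SHR. All 6 fibroblast markers were lower as well, summing to 1.84 and 0.353, and 5 of 6 immune markers, summing to 1.13 and 0.388. The part of these cells in the differences of the members was not tested.

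Of the 45 members, 25 had an average level over both libraries of at least 0.1 per 10000, the minimum for counts, and 20 did not. The closest genes on either side of this minimum were Adcy8 at 0.0957 and Prkar1b at 0.121 per 10000. Among the 25 genes, 19 were lower and 6 were higher in SHR, a share of 76% lower against 65.6% of all 7621 genes past the same minimum. By a ratio of at least 1.5, which stands in for a test, 9 of the 25 were lower, against 26.5% of all genes, and 1 was higher, against 5.22% of all genes. The 9 genes were Akap11, Akap9, Akap6, Akap8l, Akap1, Adcy2, Adcy6, Prkacb and Pkia, and the gene that was higher was Pkib. Just inside the lower limit stood Adcy2, 1.53-fold lower, and just outside it Crtc2, 1.48-fold lower. The nearest gene under the upper limit was Pkig, 1.35-fold higher. With genes of mitochondria and ribosomal proteins taken out of the total, 7 of the 9 kept the 1.5-fold call, and Adcy2 and Akap1 lost it. In that setting 7 of 27 members were lower by 1.5-fold, against 2042 of all 8149 genes past the minimum.

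**Figure D1:**
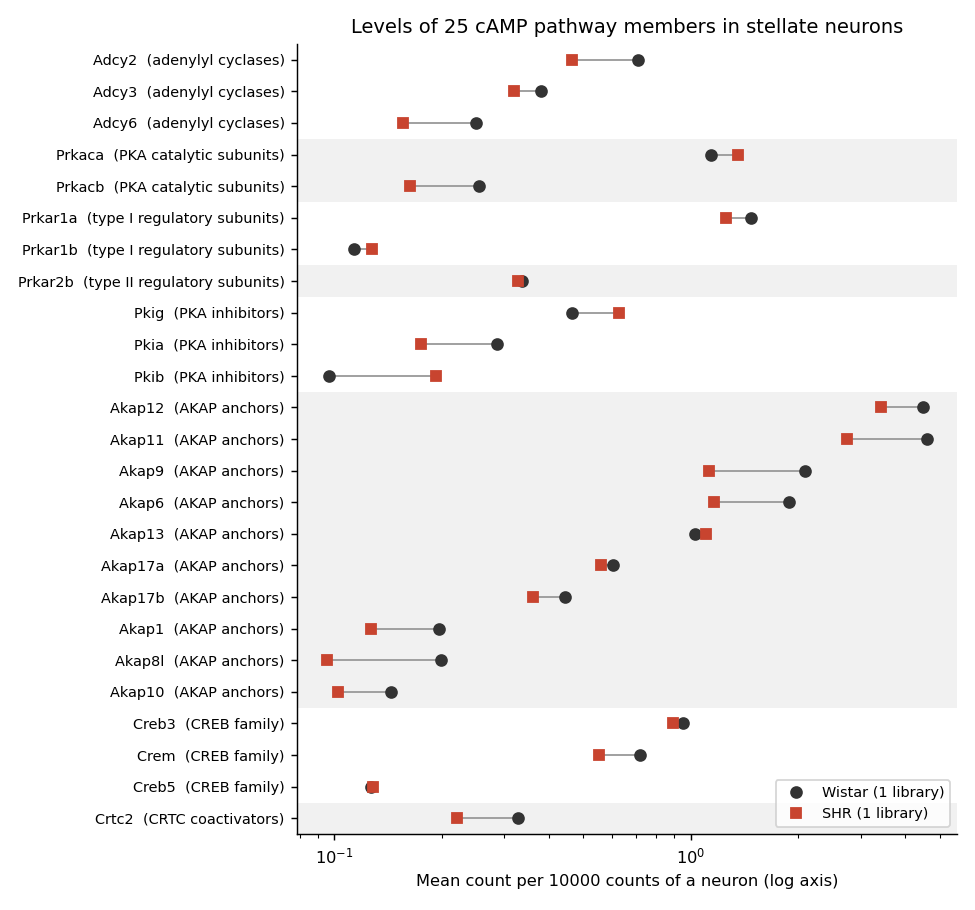
Levels of the 25 members past the minimum in Wistar (black circles) and SHR (red squares), as the mean count per 10000 counts of a neuron on a log axis, grouped by role. Each symbol is 1 library, so there are no error bars. In 19 genes the red square lies to the left, and Prkaca, Prkar1b, Pkig, Pkib, Akap13 and Creb5 go the other way.

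The whole transcriptome leaned the same way. The ratio of SHR to Wistar of the median gene past the minimum was 0.863, a log2 ratio of -0.21, and a scaling that sets this median to 1 moves every gene upward. Relative to the median gene, 16 of the 25 members were lower and 9 higher, where 50% of all genes are lower by construction. Creb3, Prkar2b and Akap17a are the 3 genes that change side. At a ratio of 1.5 relative to that gene, 2 members were lower (Akap8l and Akap9) and 2 higher (Pkib and Pkig), against 17.3% and 13.2% of all genes. The deposited logarithms add 1 to each mean and shrink the differences of low genes. On that scale the median difference, SHR minus Wistar, was a log2 value of -0.086 over the 25 members and -0.052 over all genes past the minimum.

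Members were also set beside genes of like level. At an average level of 1 per 10000 up to that of Akap12, the highest member, 49.7% of 1319 genes were lower in SHR and their median log2 difference was 0.0021. In that range 5 of 7 members were lower, with a median of -0.31, and 3 of the 7 were lower by at least 1.5-fold against 13.2% of the genes. At a level of 0.1 to 1, 14 of 18 members and 71.2% of 5945 genes were lower. These shares describe 2 libraries and were not tested.

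**Figure D2:**
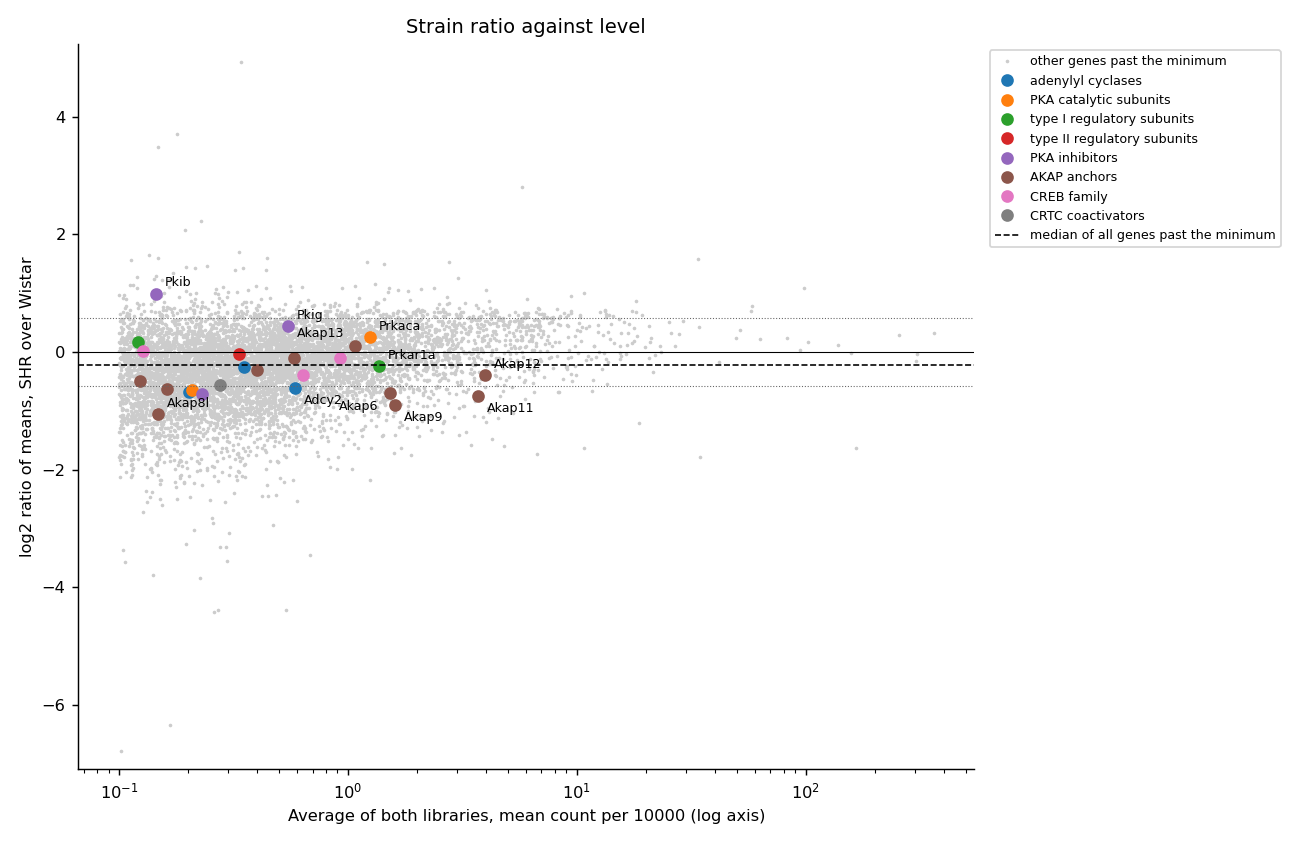
Log2 ratio of the level in SHR over Wistar (vertical axis) against the average of both libraries (horizontal log axis, mean count per 10000) for the 7621 genes past the minimum, with the 25 members in colour by role. The dashed line is the median gene at -0.21 and the dotted lines mark a ratio of 1.5. Akap11, Akap9 and Akap6 lie under the lower dotted line at a level over 1, and Pkib alone among the members lies over the upper one.

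Among the adenylyl cyclases, Adcy2, which Gβγ stimulates, was the most abundant at 0.712 per 10000 in Wistar and 0.465 in SHR. It made up 41.5% of the summed cyclase level in Wistar and 42.0% in SHR. Adcy3, a cyclase stimulated by calcium and calmodulin, followed at 0.381 in Wistar and 0.319 in SHR. Adcy6, which calcium and the inhibitory G protein restrain, had a level of 0.250 in Wistar and 0.156 in SHR, 1.60-fold lower. All 3 genes were thus lower in SHR, as were 71.2% of all genes at their level of 0.1 to 1, and their order was the same in both strains. Adcy3 lay close to the median gene, at a ratio of 0.970 relative to it. The summed level of the 10 cyclase genes was 1.72 per 10000 in Wistar and 1.11 in SHR, 1.55-fold lower.

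The other 7 cyclases were under the minimum, and 6 of them were lower in SHR. With no minimum, 9411 of all 14256 genes above 0 in both libraries were lower. Adcy8, another calcium-stimulated cyclase, had a level of 0.108 per 10000 in Wistar against 0.0830 in SHR. Adcy10, the soluble cyclase that bicarbonate activates, had nearly the same level as Adcy8 in Wistar (0.108) and 0.0217 in SHR. Adcy9 was at 0.0847 in Wistar and 0.0259 in SHR. The last 4 cyclases were scarcer still. Adcy5, the closest relative of Adcy6, was at 0.0541 and 0.0300, and Adcy1 at 0.00918 and 0.00314. Adcy4 was at 0.00776 in Wistar and was listed at 0 in SHR, and Adcy7 alone was higher, at 0.000798 and 0.00191. Grouped by how they are regulated, all 3 classes had a lower sum in SHR, and the calcium-stimulated class stood closest to the median gene. The calcium-stimulated genes Adcy1, Adcy3 and Adcy8 summed to 0.499 per 10000 in Wistar and 0.405 in SHR. The Gβγ-stimulated genes Adcy2, Adcy4 and Adcy7 summed to 0.720 and 0.466. The calcium-inhibited pair Adcy5 and Adcy6 summed to 0.304 and 0.186. Adcy9 and Adcy10 were in no class. Each sum was mostly 1 gene, so the classes largely repeat the values of Adcy3, Adcy2 and Adcy6. In Wistar these genes held 76.4%, 98.8% and 82.2% of the sum of their class.

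The catalytic subunits of PKA went in opposite directions. Prkaca, which encodes the α subunit, had a level of 1.14 per 10000 in Wistar and 1.36 in SHR, with a ratio of 1.19. Prkacb, which encodes the β subunit, had a level of 0.254 in Wistar and 0.163 in SHR, 1.56-fold lower. Prkaca therefore made up 81.8% of the summed catalytic level in Wistar and 89.3% in SHR. The summed catalytic level was 1.40 in Wistar against 1.52 in SHR, and without Prkaca its direction is that of Prkacb.

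Among the regulatory subunits, Prkar1a (RIα) was by far the most abundant at 1.48 per 10000 in Wistar and 1.26 in SHR, with a ratio of 0.850. Prkar2b (RIIβ), the main type II subunit of many neurons, had almost the same level in both, 0.337 and 0.328. The less abundant subunits were both higher in SHR. Prkar1b (RIβ) was at 0.114 in Wistar and 0.128 in SHR. Prkar2a (RIIα), just under the minimum, was at 0.0631 and 0.110, a ratio of 1.74. Prkar1a thus took 74.2% of the summed regulatory level in Wistar and 69.0% in SHR, and Prkar2a 3.17% and 6.01%. Type I genes summed to 1.59 per 10000 in Wistar and 1.39 in SHR, and type II genes to 0.400 and 0.438. With ratios of 0.869 for the type I sum and 0.974 for Prkar2b, both were lower in SHR as deposited but higher relative to the median gene at 0.863. Type I subunits thus held a smaller part of the total in SHR. The ratio of type I to type II was 3.98 in Wistar and 3.16 in SHR, with Prkar2a, under the minimum, included. All regulatory genes over all catalytic genes gave 1.43 in Wistar and 1.20 in SHR.

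The PKI genes encode short peptides that bind free catalytic subunits as pseudosubstrates, and they did not share a direction. Pkig was the most abundant, at 0.465 per 10000 in Wistar and 0.629 in SHR. Pkia was at 0.286 in Wistar and 0.175 in SHR, 1.63-fold lower. Pkib was at 0.0966 in Wistar and 0.192 in SHR, 1.99-fold higher, and it was the only member past the minimum that was higher by 1.5-fold. In Wistar Pkia stood above Pkib, and in SHR Pkib stood slightly above Pkia. Pkia made up 33.7% of the inhibitor sum in Wistar and 17.6% in SHR, and Pkib 11.4% and 19.3%. The sum over the 3 genes was 0.847 per 10000 in Wistar and 0.997 in SHR.

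**Figure D3:**
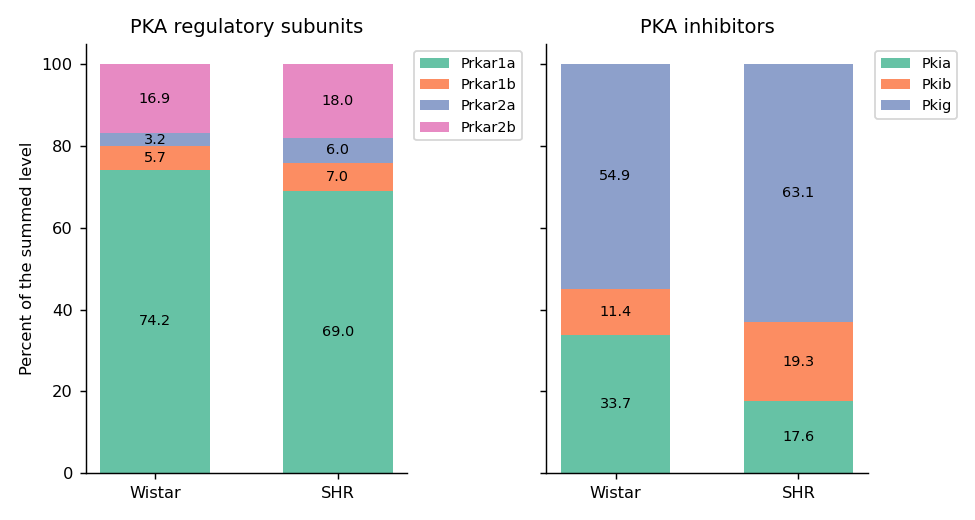
Share of each gene in the summed level of the 4 PKA regulatory subunit genes (left) and of the 3 PKI inhibitor genes (right), in percent, with 1 bar per library. Prkar1a held 74.2% in Wistar and 69.0% in SHR, and Pkia 33.7% and 17.6%.

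The AKAP genes held most of the counts of the pathway core, 16.0 of 24.2 per 10000 over all 45 members in Wistar and 10.9 of 18.3 in SHR. Akap11 and Akap12 were the most abundant members of all. Akap11, which anchors PKA with protein phosphatase 1 and GSK3, had a level of 4.62 per 10000 in Wistar and 2.75 in SHR, 1.68-fold lower, with a log2 difference of -0.58. Akap12 (gravin), a scaffold of PKA and protein kinase C, had a level of 4.48 in Wistar and 3.42 in SHR, with a log2 difference of -0.31. Akap11 ranked 284 among all genes in Wistar and 547 in SHR, and Akap12 ranked 294 and 431, so their order was exchanged.

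Akap9 and Akap6, both very large scaffolds, followed. Akap9, at the centrosome and Golgi, was at 2.09 per 10000 in Wistar and 1.12 in SHR, 1.86-fold lower. Akap6, at the nuclear envelope, was at 1.89 in Wistar and 1.16 in SHR, 1.63-fold lower. Their log2 differences were -0.54 and -0.42. Akap13, an anchor that is also a guanine nucleotide exchange factor, was the only AKAP past the minimum that was higher in SHR, at 1.03 in Wistar and 1.11 in SHR.

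The remaining AKAPs past the minimum were all lower in SHR, except that Akap17a was higher relative to the median gene. Akap17a, linked to splicing, was at 0.604 per 10000 in Wistar against 0.560 in SHR. Akap17b was at 0.443 and 0.360. The 3 others were scarcer and had lower ratios. Akap1, the mitochondrial anchor, was at 0.196 in Wistar and 0.127 in SHR, 1.54-fold lower. Akap8l, a nuclear protein, was at 0.199 in Wistar and 0.0955 in SHR, 2.09-fold lower and the lowest ratio among the 25 members. Akap10, which binds both types of regulatory subunit, was at 0.144 and 0.102.

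The other 7 AKAPs were under the minimum. Akap8, the paralogue of Akap8l, was at 0.131 per 10000 in Wistar and 0.0252 in SHR, 5.19-fold lower, so both paralogues were lower. Akap2 was at 0.0641 in Wistar and 0.0477 in SHR. Akap5, the anchor known from the M current channel, had a low level that was close in both strains, 0.0417 and 0.0395. Akap7 was at 0.0240 and 0.0147. Akap3 and Akap14 had levels of at most 0.00422 in either strain, and Akap4, known from sperm, was listed at 0 in both. Over all 17 AKAP genes the sum was 16.0 per 10000 in Wistar and 10.9 in SHR, 1.46-fold lower. Without Akap11 and Akap12 the sum was 6.87 and 4.77, 1.44-fold lower, and Akap9 and Akap6 led this rest. Without Akap9 as well it was 4.77 in Wistar and 3.64 in SHR, and that sum still held Akap6, at 1.89 and 1.16. The lower sum thus rests largely on abundant AKAP genes. AKAP counts over regulatory subunit counts gave 8.01 in Wistar and 6.00 in SHR.

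**Figure D4:**
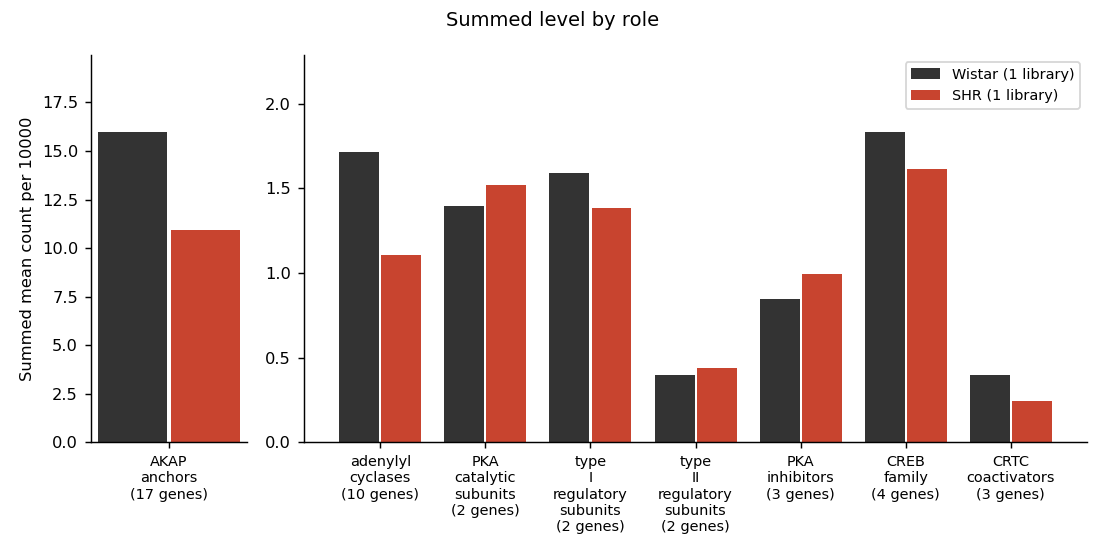
Summed level of all members of each role, in mean counts per 10000, in Wistar (black) and SHR (red), with bars from 0 and a separate vertical scale for the AKAPs. Each bar is 1 library and has no error bar. The sums of AKAPs, cyclases, type I subunits, CREB factors and CRTC coactivators were lower in SHR, and those of catalytic subunits, type II subunits and inhibitors were higher. Of the type II genes, Prkar2b was slightly lower and Prkar2a, under the minimum, was higher. Relative to the median gene, the sums of type I subunits and CREB factors were higher.

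Both Epac genes were among the scarcest members. Rapgef4 (Epac2), the neuronal form, was at 0.0119 per 10000 in Wistar against 0.0225 in SHR, and Rapgef3 (Epac1) at 0.000901 and 0.00108.

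Of the transcription factors, Creb3, a membrane-bound factor of the endoplasmic reticulum that is not a classical PKA target, was the most abundant, at 0.951 per 10000 in Wistar and 0.890 in SHR, with a ratio of 0.937 that lies over that of the median gene. Crem was at 0.719 in Wistar and 0.551 in SHR, a ratio of 0.767. Creb5 was close in both, at 0.127 and 0.129. Creb1, the classical PKA target, was under the minimum at 0.0360 in Wistar and 0.0454 in SHR, so Crem was more abundant than Creb1 in both strains. The coactivators, which enter the nucleus when they are dephosphorylated, were all lower in SHR. Crtc2 was at 0.328 in Wistar and 0.221 in SHR. Crtc3 was at 0.0614 and 0.0258, and Crtc1 at 0.0111 and 0.000668. The summed CRTC level was 0.401 per 10000 in Wistar and 0.248 in SHR, 1.62-fold lower.

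Because CREB and CREM act through the CRE, windows from 250 bases before to 50 after each RefSeq gene start were searched for its letters, TGACGTCA, which read the same on both strands. RefSeq starts of the GRCr8 rat assembly were matched by symbol for 39 members with 45 windows. The full CRE was present in 3 windows of 2 genes, Crem and Akap17a, or 6.67% of member windows against 1.83% of all 33469 windows. Both genes are past the minimum, where the share was 3 of 27 member windows (11.1%) against 3.58% of the windows of all such genes. Crem holds 2 of these windows. Counted by gene, the full CRE was in 5.13% of the 39 members against 2.00% of all genes. Past the minimum it was in 9.09% of 22 members against 3.77% of genes. The shorter core TGACG, searched on both strands and also contained in the full CRE, was in 14 of the 45 windows (31.1%) against 21.2% of all windows. Past the minimum it was in 11 of 27 member windows (40.7%) against 35.0%. Counted by gene, the core was in 30.8% of members against 23.0% of all genes, and past the minimum in 40.9% against 36.6%. Both catalytic subunit genes, Prkaca and Prkacb, held the core, as did Akap11, Akap13, Akap8l, Crtc2, Pkig, Creb1, Adcy7 and Adcy9. A match is a description of letters and not a binding site. The sequences with the full CRE are given here, since CREB and CREM are known to bind these letters and Crem is itself a member. They come from the reference rat and not from Wistar or SHR, and each holds the 250 bases before a start, 5′ to 3′ on the strand of the gene, with the full CRE in capitals.
Crem, upstream internal start (GRCr8, plus strand, chr17:58984547-58984796): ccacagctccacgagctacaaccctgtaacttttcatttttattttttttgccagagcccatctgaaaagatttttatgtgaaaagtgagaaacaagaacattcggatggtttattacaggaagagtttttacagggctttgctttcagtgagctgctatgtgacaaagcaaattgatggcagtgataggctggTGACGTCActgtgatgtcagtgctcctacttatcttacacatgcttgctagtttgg
Crem, downstream internal start (GRCr8, plus strand, chr17:58985240-58985489): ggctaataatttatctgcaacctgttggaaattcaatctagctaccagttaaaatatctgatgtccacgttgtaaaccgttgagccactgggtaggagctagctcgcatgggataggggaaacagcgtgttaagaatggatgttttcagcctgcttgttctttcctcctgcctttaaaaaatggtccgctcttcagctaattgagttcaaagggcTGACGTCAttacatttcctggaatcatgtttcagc
Akap17a (GRCr8, minus strand, chr12:21428248-21428497): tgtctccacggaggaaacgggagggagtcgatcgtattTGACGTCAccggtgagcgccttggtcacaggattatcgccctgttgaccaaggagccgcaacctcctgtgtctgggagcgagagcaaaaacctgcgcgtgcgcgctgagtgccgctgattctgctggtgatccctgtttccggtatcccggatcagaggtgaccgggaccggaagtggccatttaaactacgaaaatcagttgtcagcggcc

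The matches begin 56 bases before the upstream internal start of Crem, 35 before the downstream one and 212 before the Akap17a start, and the downstream Crem window holds 1 more match that begins at base 40 after the start. Crem is known to have an internal promoter that cyclic AMP induces and that gives ICER, a short repressor. The level of Crem is a sum over its transcripts, and whether these starts were used was not tested. Akap17a, the other gene with a full CRE, had a ratio of 0.927, and Crem 0.767.

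Gene span ran along with the strain ratio over the whole transcriptome, so the members were set beside genes of like span, as ranks in GRCr8. Of the 25 members past the minimum, 19 had a span at or above the median of 7291 genes with a known span. In that longer part 14 of 19 members and 79.9% of all genes were lower in SHR, and in the shorter part 5 of 6 members and 52.5% of all genes. Among the 729 genes of longest span, 85.6% were lower, against 3 of 6 members. The 3 lower ones were Adcy2, Akap9 and Akap6, and the others were Akap13, Prkar1b and Creb5. Those 3 were lower by at least 1.5-fold, as were 47.1% of the 729 genes. By at least 1.5-fold, 8 of 19 members (42.1%) and 35.2% of all genes were lower in the longer part, and 1 of 6 members and 17.6% of all genes in the shorter part. None of these shares was tested. In GRCr8, 11 of the 45 members overlap another protein-coding gene. Past the minimum these were 8 genes, Adcy2, Adcy3, Adcy6, Akap9, Creb3, Prkaca, Prkar1a and Prkar1b, of which Adcy2, Adcy6 and Akap9 are among those lower by 1.5-fold, and whether the counting used strand is not given in the sources used here.

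Genes that act before and after these members were listed apart from the rule, and 55 of 59 had a line. Of the 23 past the minimum, 15 were lower and 8 higher in SHR, where 65.6% of all genes were lower. By at least 1.5-fold, 8 were lower and 0 higher, read against the 26.5% and 5.22% of all genes. All 4 G protein genes past the minimum were higher, against 34.4% of all genes past it. All of them but Gnai3 had an average of at least 1 per 10000, where 913 of 1676 genes were higher. Gnas, the stimulatory α subunit that drives the cyclases, had a level of 5.72 per 10000 in Wistar and 8.55 in SHR, with a ratio of 1.49. The catalytic subunit Prkaca and Gnas were thus higher in SHR in the same libraries in which the cyclases Adcy2, Adcy3 and Adcy6 were lower. At the level of these cyclases, 0.1 to 1 per 10000, 71.2% of all genes were lower. At the level of Prkaca and Gnas, 1 or more, 913 of 1676 genes were higher.

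All 5 phosphodiesterases past the minimum were lower, as were 71.2% of all genes at their level of 0.1 to 1 per 10000. Of the receptors that couple to the stimulatory G protein, Adcyap1r1, the PACAP receptor, was the most abundant at 1.66 per 10000 in Wistar against 1.19 in SHR. The phosphodiesterases break down cyclic AMP, and the sum over the 16 listed genes was 2.07 in Wistar and 1.10 in SHR. By at least 1.5-fold, 4 of the 5 were lower, against 30.7% of all genes at a level of 0.1 to 1. Pde2a was at 0.558 and 0.149, Pde7a at 0.359 and 0.165, and Pde4b at 0.343 and 0.194. Pde10a was 0.182 in Wistar and 0.117 in SHR, and Pde3a, at 0.300 and 0.207, missed the ratio of 1.5.

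Anchoring proteins without an Akap symbol had 4 of 6 genes past the minimum lower, close to the 65.6% of all genes. Of these 4, Gskip had nearly the same level in both and was higher relative to the median gene. Map2, a microtubule protein that binds type II PKA, was more abundant than any Akap gene, at 10.3 per 10000 in Wistar against 6.43 in SHR. Arfgef2 was at 0.784 and 0.656, whereas Myrip, at 0.294 and 0.330, and Wasf1, at 0.262 and 0.282, were higher. Of the effectors past the minimum 4 of 6 were lower, again close to that 65.6%. Of the remaining effectors, the CREB coactivator Crebbp was the most abundant by the average of both libraries, at 0.772 in Wistar and 0.424 in SHR. In SHR, Rap1a and Sik1 stood above Crebbp. Sik2, a kinase that keeps CRTC proteins in the cytoplasm, was at 0.375 and 0.193. Sik1, a CREB target of the same family, was at 0.359 and 0.445, and Rap1a, the effector of Epac, at 0.578 and 0.594.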

How the data were processed

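Dissociated stellate ganglia were sequenced with 10x Genomics single cell 3′ v3 chemistry, 1 library per strain. The submitters' processing notes name Cell Ranger 3.0.2, Seurat 3 and the build Rnor_6.0. The authors deposited, per gene and library, natural logs of means per 10000, with 1 added, over the neurons of the neuron cluster. The deposited table of the authors' own comparison (fold changes, p-values and shares of cells) was not used. Filters on cells, doublet removal, neuron number and depth are not given in the sources used here.

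Values were converted back to means with Python 3.11.15, NumPy 2.4.6 and pandas 2.3.3, and each library summed to 10000. Genes whose name occurs more than once were dropped. Counts took genes with an average of at least 0.1 per 10000, and a 1.5-fold ratio of means stood in for a test, and the code was tested on simulated data. The naming rule took members past the minimum or next to a threshold, lower ones if most abundant of their role or at 0 in a library, and listed pathway genes past both the minimum and 1.5-fold or most abundant. Other genes named, including further members under the minimum, were chosen after their values were seen. A listed pathway gene that the rule would name is not reported here. RefSeq promoter windows (GRCr8) were searched for CRE letters, and protein sequences were not analysed here. Members and lists were chosen with earlier results of these data known. Alternatives were other pseudocounts, scalings, minimums and ratios.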

Additional observations from a re-analysis of the deposited data

How the results depend on the processing

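No paired analysis was possible because only 1 library represents each strain, no library could be left out, and depth is unknown, so counting error limits every low gene to an unknown extent. Leaving marker genes of other cell types out of the total kept every count of members and moved none of the 25 differences by 0.05 or more in log2. The largest of the marker sums, that of glia, was 9.19 in Wistar and 3.41 in SHR, a very small part of each total. Leaving these markers out could therefore hardly move any difference. It cannot show whether RNA of other cells bears on the members, which was not tested. With genes of mitochondria and ribosomal proteins taken out of the total, 27 members passed the minimum, 19 were lower and 8 higher. By 1.5-fold, 7 were lower in place of 9 and 2 higher in place of 1. Of all 8149 genes past the minimum in that setting, 5159 were lower, and 2042 were lower and 545 higher by 1.5-fold. The log2 difference of Prkar2b became 0.00094. With the median of all genes set to 0, 2 members were lower by 1.5-fold in place of 9 and 2 higher in place of 1. Of all 7621 genes, 1320 were lower and 1005 higher by 1.5-fold in that setting. The median difference of the members became -0.034, and the differences of Creb3, Prkar2b and Akap17a turned positive at 0.0070, 0.043 and 0.012.

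The size of the median difference, -0.086, follows the pseudocount, at -0.27 with 0.1 and -0.012 with 10. With no minimum, 31 members were lower and 12 higher, and 18 were lower and 4 higher by 1.5-fold. Of all 14256 genes then counted, 9411 were lower, and 5108 were lower and 1650 higher by 1.5-fold. Of the other pathway genes 31 were lower and 13 higher. With a minimum of 1 per 10000, 5 members were lower and 2 higher, and 3 were lower and 0 higher by 1.5-fold. Of all 1676 genes then counted, 763 were lower, and 195 were lower and 172 higher by 1.5-fold. The median difference of the members was -0.31, and of the other pathway genes 2 were lower and 3 higher. These counts moved because more or fewer genes were counted. At a 2-fold ratio, 1 of the 25 members was lower and 0 were higher, against 861 and 58 of all 7621 genes.

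Without the most abundant gene of each role, the ratio of the summed levels, SHR over Wistar, turned from 1.09 to 0.640 for the catalytic subunits, from 0.869 to 1.12 for type I subunits and from 1.18 to 0.961 for the inhibitors. It became 1.74 for type II subunits, 0.654 for AKAPs, 1.20 for Epacs, 0.823 for CREB factors and 0.365 for CRTC coactivators, and stayed at 0.639 for cyclases. The directions of the catalytic, type I and inhibitor sums thus rest on Prkaca, Prkar1a and Pkig.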
